A study of Mus musculus with 10 samples.

Results

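The Z-disc is the protein plate that anchors the thin filaments of neighbouring sarcomeres, and desmin filaments surround it and tie adjacent myofibrils together. Its core is made of α-actinin crosslinks, to which filamin C, myotilin, the myozenins, telethonin and PDZ-LIM proteins are attached. The composition of this plate differs between slow and fast fibers, since α-actinin-3, myozenin-1 and myozenin-3 are known from fast fibers, whereas myozenin-2 is known from slow fibers and heart.

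Transcripts of 10 Z-disc structural genes, out of 54232 genes in the deposited table, were followed in gastrocnemius muscle of mice that lack desmin. The genes are Actn2, Actn3, Flnc, Myot, Ldb3, Myoz1, Myoz2, Myoz3, Tcap and Pdlim3. They were listed by the function of their proteins and found in the table through Ensembl identifiers, and all 10 reached the expression limit for testing. The samples were 5 homozygous desmin knock-out mice (Des -/-) and 5 wild-type mice (Des wt/wt, littermates according to the methods) at 3 months of age and without any treatment. All carry the same strain label, which joins B6J, 129Sv and Destm1Cba/Cscl in this order. The knock-out is not restricted to a cell type or an age. The labels name gastrocnemius as the source, whereas the study elsewhere speaks of gastrocnemius together with plantaris. Bulk muscle was sequenced, in which fewer fibers of a type and less RNA per fiber cannot be told apart. The methods describe RNA pooled per genotype, whereas the table has 1 column for each mouse.

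The values were transformed by the authors with the regularized logarithm (rlog), which is a log2 scale that corrects for library size and pulls each gene towards its own mean. Differences on this scale are smaller than fold changes of read counts, and read depth is unknown from them. Des itself ranged from 11.76 to 11.89 in desmin knock-out and from 16.10 to 17.74 in wild-type mice, so all 10 samples carried the level of their label. The skeletal muscle genes Acta1, Ckm and Myh4 and the other 5 of an identity list were present in all mice, and none of these genes was at 0. Wild-type mouse 3 stood apart from the others, with a sum of values (2 to the power of rlog) at 1.48 times the median of all mice and the highest wild-type value for 8 of the 10 Z-disc genes. Values without this mouse are therefore given beside the results that it moves most.

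Both α-actinin genes and the slow myozenin gene changed in desmin knock-out muscle, in opposite directions. Actn2 and Myoz2 rose, and Actn3 fell. At an adjusted p under 0.05 (limma, Benjamini-Hochberg adjustment over 14289 tested genes), 3 of the 10 genes were called, compared with 13.7% of all tested genes. Of these, 2 were higher and 1 was lower, whereas 7.7% of all tested genes were higher and 5.99% were lower. The median difference of the 10 genes was 0.23, compared with -0.0029 over all tested genes. Values of desmin knock-out and wild-type mice did not overlap for Actn2 and Actn3, that is for 2 of 10 genes, compared with 14.4% of all tested genes. Without wild-type mouse 3, 5 of the 10 genes were called, compared with 17.5% of tested genes, and Pdlim3 and Myot joined the other 3.

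Sequences before the RefSeq start are shown for both genes that rose, and for Ldb3, which had the smallest difference of the 10 genes. They were taken from RefSeq promoter windows (GRCm38.p6). Windows of 5 of the 10 genes were used, namely Actn2, Myoz2, Ldb3, Flnc and Pdlim3. This selection does not show that the remaining genes lack such windows, and their promoters were not searched. The last 150 bases before the RefSeq start are printed 5′ to 3′ on the strand of the gene, all 3 genes being on the minus strand. GENCODE M21, from which the gene positions given here come, places the starts of Actn2 and Myoz2 further upstream, so that the last 28 printed bases of both lie within the GENCODE gene, as does the last 1 of Ldb3. The regions are chr13:12340733-12340882 for Actn2, chr3:123034988-123035137 for Myoz2 and chr14:34588682-34588831 for Ldb3. Capitals mark matches to an E-box, a MEF2 motif or a CArG box.
Actn2: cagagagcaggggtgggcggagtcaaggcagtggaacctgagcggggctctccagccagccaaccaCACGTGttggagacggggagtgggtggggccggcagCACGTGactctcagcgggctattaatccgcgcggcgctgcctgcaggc
Myoz2: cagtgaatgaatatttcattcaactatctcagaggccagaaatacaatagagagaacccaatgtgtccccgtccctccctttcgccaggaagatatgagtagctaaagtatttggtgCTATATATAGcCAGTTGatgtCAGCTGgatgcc
Ldb3: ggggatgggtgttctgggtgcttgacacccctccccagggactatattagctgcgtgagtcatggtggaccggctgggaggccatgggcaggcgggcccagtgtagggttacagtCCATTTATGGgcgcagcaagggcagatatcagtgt

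Altogether 4 motifs of muscle promoters were searched on both strands in the 250 bases before each RefSeq start. These were the E-box (CANNTG), bound by myogenic bHLH factors among many others, the MEF2 motif, the CArG box of serum response factor and the MCAT element (CATTCC) of TEAD factors. Actn2 held 3 E-boxes, of which both printed ones have the same 6 letters, and none of the other motifs. Myoz2 held 1 MEF2 motif that begins 33 bases before the RefSeq start, and 2 E-boxes that begin 22 and 12 bases before it. By the GENCODE start, both E-boxes and the end of the MEF2 match are inside the Myoz2 gene. A MEF2 motif was found in 1.69% of 32851 promoter windows of the mouse and an E-box in 66.2%. In Ldb3 a CArG box, present in 1.47% of windows, began 35 bases before the first of its 2 RefSeq starts. Pdlim3 held 2 E-boxes and 2 MCAT elements, and Flnc held 1 MCAT element before 1 of its 2 starts, an element found in 12.6% of windows. These matches describe letters only and say nothing of binding in this muscle.

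α-Actinins are antiparallel dimers that crosslink actin filaments in the Z-disc. Actn2 (ENSMUSG00000052374, chromosome 13, 12269426 to 12340760) encodes the form found in all skeletal fibers and in heart. Its rlog values were 16.21, 16.16, 15.94, 15.91 and 15.99 in desmin knock-out mice 1 to 5. In wild-type mice 1 to 5 they were 14.99, 15.37, 15.86, 14.97 and 14.88. Every knock-out value lay above every wild-type value, but the gap to wild-type mouse 3 was narrow, and after centring each mouse on its median the lowest knock-out value (15.89) fell within the wild-type range (up to 15.97). The mean was 16.04 ± 0.13 (SD, n = 5) and 15.21 ± 0.41 (SD, n = 5), respectively. This amounts to a rise of 0.83 (standard error 0.18), or 1.78-fold on the rlog scale, with an adjusted p of 0.00638 from limma. Without wild-type mouse 3 the rise was 0.99 (limma, adjusted p = 4.4e-05), and Actn2 was called in all 18 alternative fits.

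Actn3 (ENSMUSG00000006457, chromosome 19, 4861216 to 4877909) encodes the α-actinin of fast glycolytic fibers. Its values were 17.24, 17.38, 17.55, 17.23 and 17.12 in desmin knock-out mice 1 to 5. Wild-type mice 1 to 5 had 17.95, 17.93, 19.34, 18.24 and 17.92. All knock-out mice lay below all wild-type mice, and wild-type mouse 3 lay far above the other wild-type mice. The mean fell from 18.28 ± 0.61 (SD, n = 5) to 17.31 ± 0.17 (SD, n = 5). The rlog difference was -0.97 (standard error 0.25, limma, adjusted p = 0.0196). When wild-type mouse 3 was left out, it was -0.70 (limma, adjusted p = 0.00125). The call was lost without desmin knock-out mouse 4 (limma, adjusted p = 0.0501) and without desmin knock-out mouse 5 (limma, adjusted p = 0.0556), with differences of -0.95 and -0.93.

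The ratio of both α-actinin transcripts was computed in each mouse as the rlog value of Actn2 minus that of Actn3. It ranged from -1.61 to -1.03 in desmin knock-out and from -3.48 to -2.57 in wild-type mice. The ratio thus moved towards Actn2 in all 5 knock-out mice, by 1.80 on the log2 scale (3.48-fold), and by 1.70 without wild-type mouse 3. Since both values come from the same mouse, scaling of a whole sample does not affect this ratio. It is given as a description without a test.

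**Figure D1:**
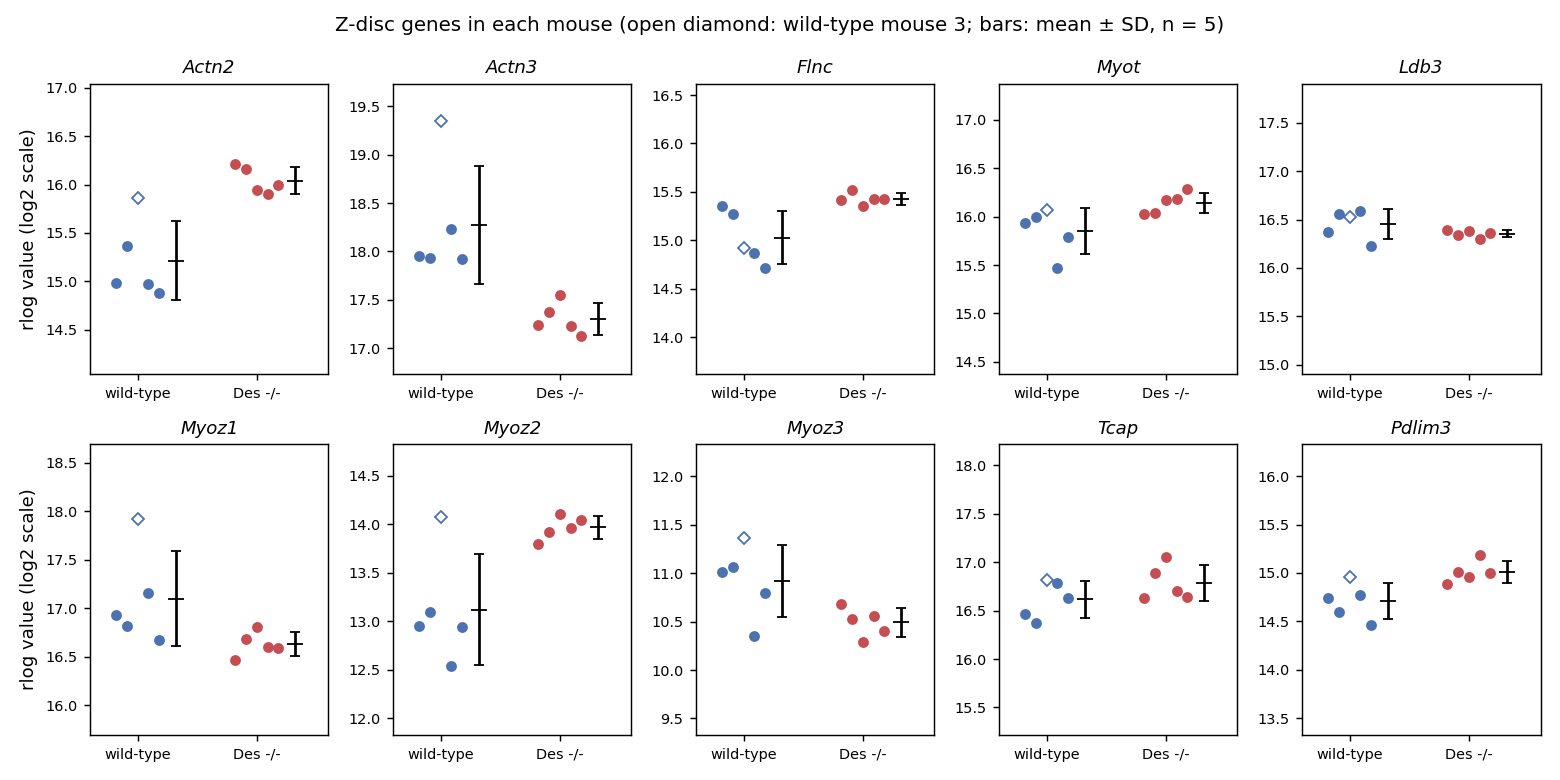
rlog values (log2 scale, y axis, each panel spanning 3 units) of the 10 Z-disc genes in wild-type (blue) and desmin knock-out mice (red, Des -/-), 1 point per mouse, with mean ± SD of 5 mice in black. Actn2 values of knock-out mice lie above all wild-type values on the deposited scale (they overlap after median centring) and Actn3 values below, and wild-type mouse 3 (open diamond) has the highest wild-type value in 8 of the 10 panels.

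Myozenins, also named calsarcins or FATZ proteins, bind α-actinin, filamin C and telethonin and tether the phosphatase calcineurin to the Z-disc. Myoz2 (ENSMUSG00000028116, chromosome 3, 123006206 to 123035015), the form of slow fibers and heart, had 13.80, 13.93, 14.11, 13.96 and 14.05 in desmin knock-out mice 1 to 5. In wild-type mice 1 to 5 the values were 12.95, 13.09, 14.08, 12.54 and 12.94. Wild-type mouse 3 reached the level of the knock-out mice, and the other 4 wild-type mice lay below all of them. The rise was 0.85 (standard error 0.22, 1.80-fold on the rlog scale, limma, adjusted p = 0.0188). It was 1.09 without wild-type mouse 3 (limma, adjusted p = 1.5e-05).

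Myoz1 (ENSMUSG00000068697, chromosome 14, 20649107 to 20656540), the myozenin of fast fibers, had a lower mean in desmin knock-out mice that did not pass the test. Its values were 16.47, 16.68, 16.81, 16.59 and 16.59 in desmin knock-out mice 1 to 5, and 16.93, 16.81, 17.92, 17.15 and 16.67 in wild-type mice 1 to 5. Below the lowest wild-type value lay 3 of the 5 knock-out mice. The difference was -0.47 with a 95% interval from -0.91 to -0.025 (limma, adjusted p = 0.157), and it was -0.26 without wild-type mouse 3. Myoz3 (ENSMUSG00000049173, chromosome 18, 60573750 to 60591788), a further myozenin of fast fibers, ranged from 10.29 to 10.69 in desmin knock-out and from 10.35 to 11.37 in wild-type mice. These ranges overlap through wild-type mouse 4, which had the lowest wild-type value. Its difference of -0.43 (95% interval -0.76 to -0.088, limma, adjusted p = 0.0925) passed the test when this mouse was left out (difference -0.57, limma, adjusted p = 0.00962). Without wild-type mouse 3 the Myoz3 difference was smaller, -0.31, and did not pass (limma, adjusted p = 0.128). Myoz3 was not called in 16 of 18 alternative fits.

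Within each mouse, Myoz2 minus Myoz1 was between -2.76 and -2.54 in desmin knock-out mice and between -4.61 and -3.72 in wild-type mice. The knock-out mice differed little in this ratio, with an SD of 0.079, compared with 0.37 in wild-type mice. Its shift towards Myoz2 was 1.32 (2.49-fold) and remained 1.35 without wild-type mouse 3. For Myoz2 minus Myoz3 the ranges were 3.12 to 3.82 and 1.94 to 2.71, a shift of 1.27. In wild-type mouse 3, Myoz1 and Myoz2 were both high, so its ratio of -3.84 lay among those of the other wild-type mice. Both myozenin ratios share Myoz2 and are, like the α-actinin ratio, not tested.

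**Figure D2:**
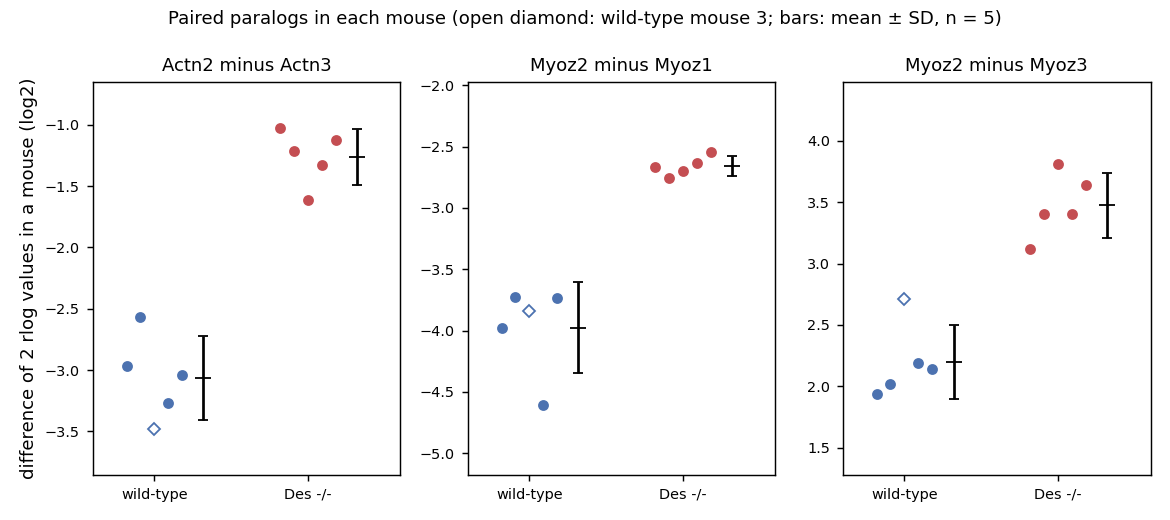
Difference of the rlog values of paralogous genes within each mouse (log2, y axis), 1 point per mouse, with mean ± SD of 5 mice in black. In all 3 panels the desmin knock-out mice (red) lie above the wild-type mice (blue, open diamond for mouse 3), by 1.80, 1.32 and 1.27 on average.

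Flnc (ENSMUSG00000068699, chromosome 6, 29433256 to 29461883) encodes filamin C, an actin crosslinker that is found at the Z-disc and at sites of myofibrillar damage. In desmin knock-out mice it lay in the narrow range of 15.35 to 15.52, and in wild-type mice between 14.71 and 15.35. The highest wild-type value, that of mouse 1, reached the lowest knock-out value, while the other 4 knock-out mice were higher than any wild-type mouse. The difference of 0.40 (95% interval 0.12 to 0.69) missed the threshold over all genes (limma, adjusted p = 0.0602). It passed without wild-type mouse 1 (difference 0.48, limma, adjusted p = 0.0268) and without wild-type mouse 2 (difference 0.46, limma, adjusted p = 0.0456). These mice had the highest wild-type values, and Flnc was not called in 15 of 18 alternative fits. Without wild-type mouse 3 the Flnc difference was 0.38 (limma, adjusted p = 0.0508). Myot (ENSMUSG00000024471, chromosome 18, 44334074 to 44355724), which encodes the α-actinin and filamin binding protein myotilin, ranged from 16.03 to 16.28 and from 15.47 to 16.07, respectively. Here 3 of 5 knock-out mice were higher than any wild-type mouse. The difference was 0.29 (95% interval 0.0078 to 0.58, limma, adjusted p = 0.169), and without wild-type mouse 3 it was 0.35 (limma, adjusted p = 0.0494). Myot was not called in 15 of 18 alternative fits.

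PDZ-LIM proteins bind α-actinin with their PDZ domain. Pdlim3 (ENSMUSG00000031636, chromosome 8, 45885461 to 45919548), which encodes ALP, had 14.89 to 15.19 in desmin knock-out and 14.47 to 14.96 in wild-type mice. Wild-type mouse 3 had the highest wild-type value, and without it the 2 groups no longer overlapped. The difference was 0.30 (95% interval 0.058 to 0.55, limma, adjusted p = 0.0984). Without this mouse it was 0.37 and passed the test (limma, adjusted p = 0.0118). Pdlim3 was not called in 14 of 18 alternative fits. Ldb3 (ENSMUSG00000021798, chromosome 14, 34526603 to 34588682), which encodes ZASP or cypher, was the most even gene of the list in desmin knock-out mice, with 16.36 ± 0.04 (SD, n = 5), and had 16.45 ± 0.15 (SD, n = 5) in wild-type mice. All knock-out values lay within the range of the wild-type mice. A difference of -0.098 with a 95% interval from -0.34 to 0.15 was measured (limma, adjusted p = 0.615), and its sign turned with quantile normalization (0.070). Ldb3 is spliced into several isoforms, which values per gene do not resolve.

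Tcap (ENSMUSG00000007877, chromosome 11, 98383811 to 98384953) encodes telethonin, which joins the ends of titin molecules in the Z-disc. Its values were 16.63, 16.89, 17.06, 16.70 and 16.65 in desmin knock-out mice 1 to 5 and 16.46, 16.38, 16.82, 16.78 and 16.63 in wild-type mice 1 to 5. Both groups overlapped widely, and knock-out mice 2 and 3 were higher than any wild-type mouse. The difference of 0.17 (95% interval -0.13 to 0.47) did not pass (limma, adjusted p = 0.463), nor did it in any of the 18 alternative fits. With unadjusted exact permutation tests of the 5 against 5 values (two-sided), Actn2 and Actn3 had p = 0.00794, which is the smallest p this design allows. The exact p was 0.0397 for Myoz2, 0.0159 for Flnc, 0.0238 for both Myot and Pdlim3 and 0.0317 for Myoz1. It was 0.0556 for Myoz3, 0.167 for Ldb3 and 0.214 for Tcap.

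**Figure D3:**
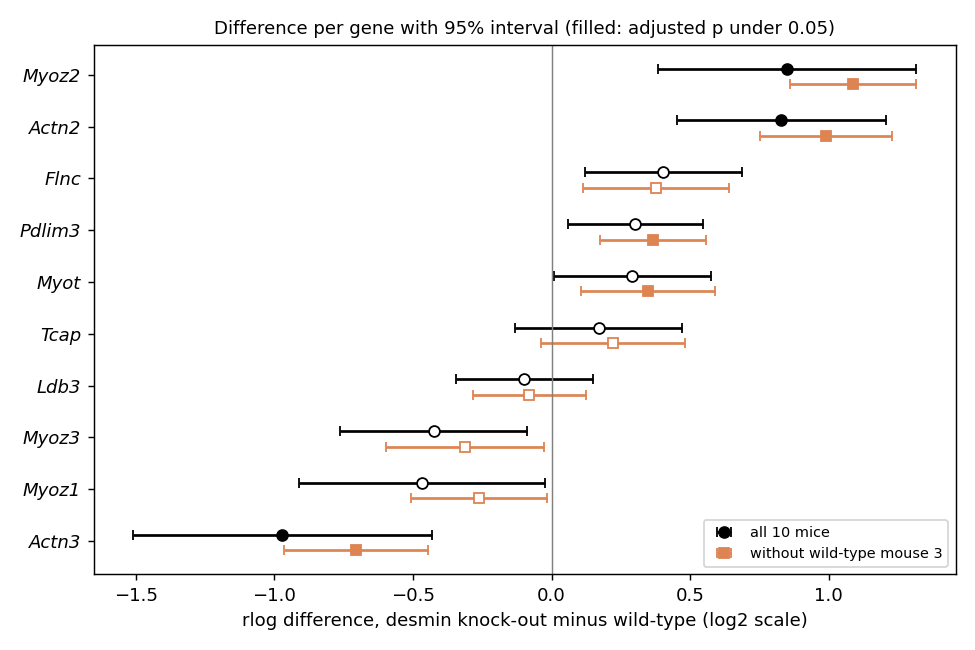
rlog difference of desmin knock-out minus wild-type mice (log2 scale, x axis) for each Z-disc gene with its unadjusted 95% interval from limma, for all 10 mice (black) and without wild-type mouse 3 (orange); filled symbols have an adjusted p under 0.05. Actn2, Myoz2 and Actn3 are filled in both fits, and Pdlim3 and Myot in the fit without wild-type mouse 3.

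Levels of different genes were set side by side as rlog values minus log2 of the exon length in kilobases, a scale of levels per length. In wild-type mice Actn3 (16.74 ± 0.61, SD, n = 5), Tcap (16.69 ± 0.19, SD, n = 5) and Myoz1 (16.18 ± 0.49, SD, n = 5) were the most abundant per length, and their ranges over the mice overlapped. They ranked 21, 23 and 29 among all tested genes. Myot (14.71), Ldb3 (13.84), Actn2 (13.29), Pdlim3 (12.34), Flnc (11.79), Myoz2 (11.35) and Myoz3 (9.14) followed. In this order the ranges of Ldb3 and Actn2, of Pdlim3 and Flnc, and of Flnc and Myoz2 overlapped between neighbours. In desmin knock-out mice Tcap alone led with 16.86 ± 0.18 (SD, n = 5), and Actn3 (15.77) and Myoz1 (15.71) overlapped below it. Actn2 stood at 14.12 and Ldb3 at 13.75 per length in desmin knock-out mice, where the lowest Actn2 value (13.98) exceeded the highest of Ldb3 (13.79). Flnc and Myoz2 had the same mean level per length, 12.20. Myoz3 remained the least abundant with 8.71. Desmin knock-out mice had the smaller SD for all 10 genes, and for 8 of them without wild-type mouse 3. With all 10 mice, the SD was smaller in desmin knock-out mice for 82.9% of all tested genes. This share was not computed without wild-type mouse 3.

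**Figure D4:**
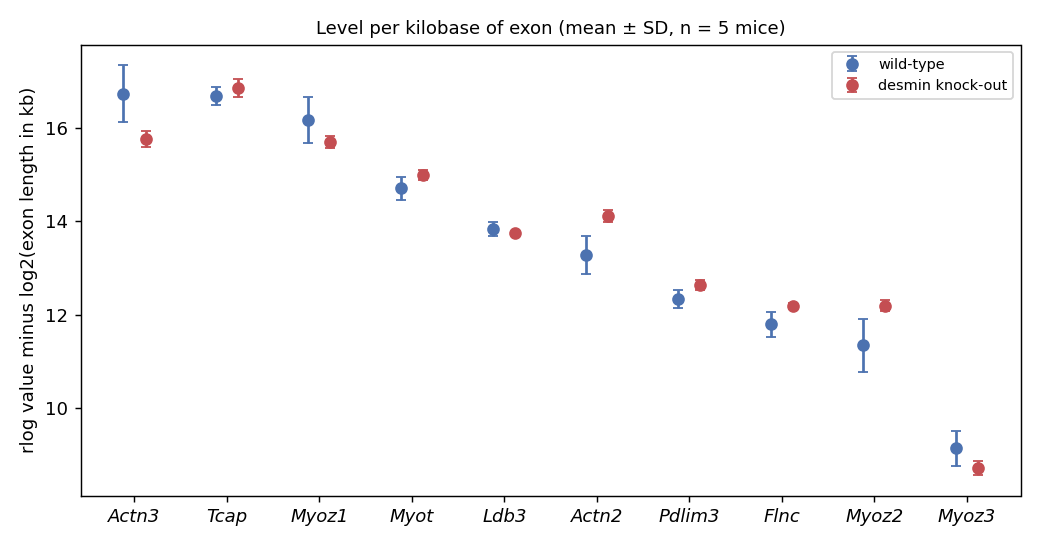
Level per length (rlog value minus log2 of exon length in kilobases, y axis) of the 10 Z-disc genes, ordered by the wild-type mean, as mean ± SD of 5 wild-type (blue) and 5 desmin knock-out mice (red). Actn3, Tcap and Myoz1 lead in wild-type mice with 16.74, 16.69 and 16.18, and Actn2 stands below Ldb3 in wild-type but above it in desmin knock-out mice.

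Other proteins of the Z-disc were examined in lists written from general knowledge. Of 10 paralogs of these genes, limma called 2 higher and 1 lower in the muscle without desmin, compared with 7.7% and 5.99% of all tested genes. Their median difference was -0.017 (-0.053 without wild-type mouse 3). The 2 higher genes were the PDZ-LIM genes Pdlim1 (difference 0.59, standard error 0.16, limma, adjusted p = 0.0228) and Pdlim2 (0.59, standard error 0.15, limma, adjusted p = 0.0194). Pdlim1 had 11.25 to 11.39 in desmin knock-out and 10.08 to 10.99 in wild-type mice. The lower gene was Pdlim7, which encodes enigma (-0.54, standard error 0.14, limma, adjusted p = 0.0209). The PDZ-LIM family, to which Pdlim3 and Ldb3 belong, thus had members in both directions. Both non-muscle α-actinin genes, Actn1 (0.051) and Actn4 (-0.29), which were picked out after their values had been seen, did not pass the test.

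Of 25 further Z-disc genes, 2 were higher and 3 lower, compared with 7.7% and 5.99% of all tested genes. The median difference was 0.11 (0.041 without wild-type mouse 3). Csrp3, which encodes the muscle LIM protein that binds telethonin and α-actinin, had 14.03 to 14.54 in desmin knock-out and 12.29 to 13.13 in wild-type mice. It rose by 1.49 (standard error 0.16, limma, adjusted p = 3.0e-05), more than any of the 10 structural genes. Ankrd2, a stretch-responsive ankyrin repeat gene typical of slow fibers, rose by 0.96 (standard error 0.15, limma, adjusted p = 8.1e-04). Capzb, which encodes a subunit of the capping protein of thin filaments in the Z-disc, had a difference of -0.34 (limma, adjusted p = 0.0297). Trim54, a MURF ubiquitin ligase gene, had -0.62 (limma, adjusted p = 0.043), and Ky, the kyphoscoliosis peptidase gene, -0.36 (limma, adjusted p = 0.0454). The calls of Capzb, Trim54 and Ky were lost in 8, 9 and 13 of 18 alternative fits, respectively. Without wild-type mouse 3, 6 of the 25 genes were higher and 4 lower, compared with 17.5% of all tested genes called in either direction.

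Calcineurin, which myozenins hold at the Z-disc, and its targets were examined through 9 genes. Of these, 2 were higher (limma), compared with 7.7% of all tested genes, and the median difference was -0.0095 (0.099 without wild-type mouse 3). None of these genes was called lower by limma, and 5 of the 9 had an unadjusted p under 0.05, compared with 27.6% of all tested genes. Most of these 5, but not all, had a higher mean in desmin knock-out mice. Nfatc2, an NFAT transcription factor gene, rose by 0.91 (standard error 0.14, limma, adjusted p = 5.9e-04). The catalytic subunit gene Ppp3ca rose by 0.54 (standard error 0.14, limma, adjusted p = 0.0193).

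**Figure D5:**
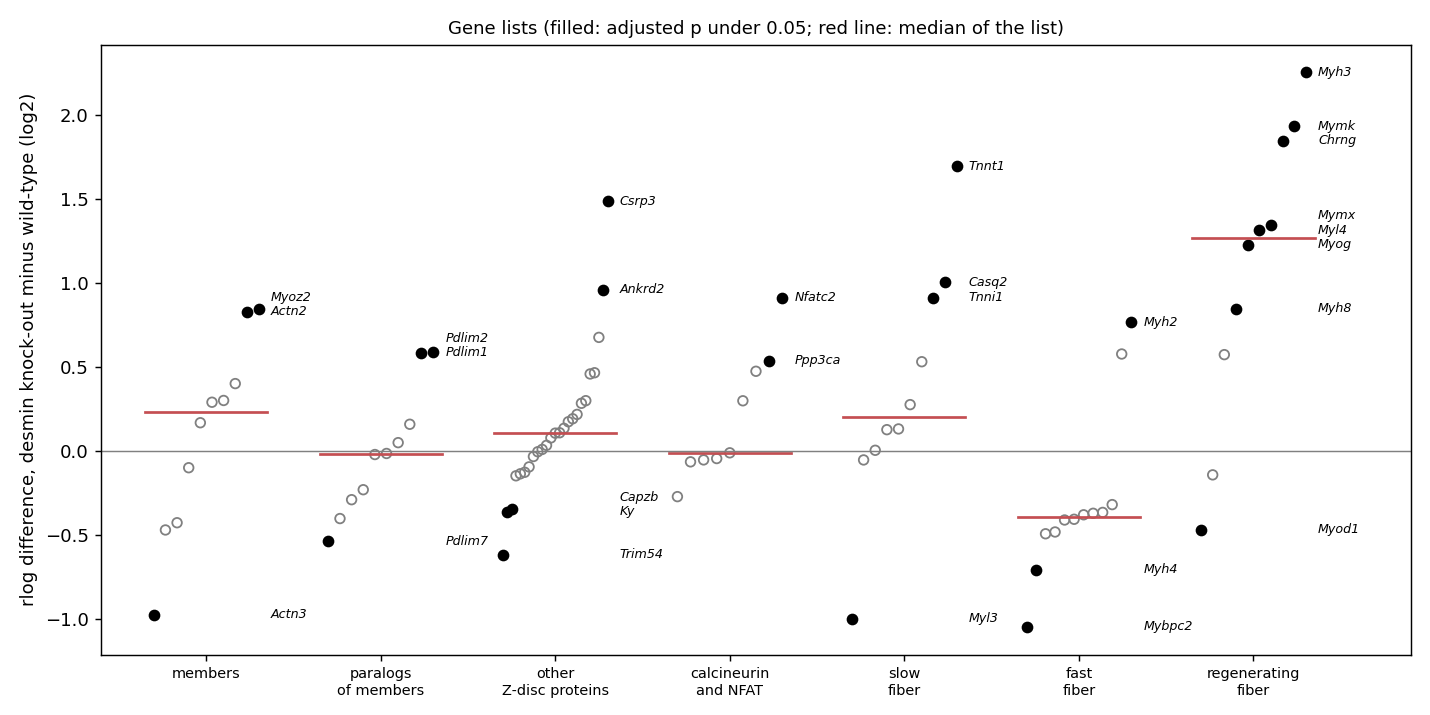
rlog difference of desmin knock-out minus wild-type mice (log2, y axis) for each gene of 7 lists (x axis), sorted within a list; filled points have an adjusted p under 0.05 in limma and are named, and the red lines mark list medians. The 10 Z-disc genes (members) have a median of 0.23 and the fast-fiber genes one of -0.39, while 7 regenerating-fiber genes are higher.

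Markers of fiber types and of other cells are given here because some moved with the genotype. Of all tested genes, 7.7% were higher and 5.99% were lower. Of 10 slow-fiber genes, 3 were higher, Tnnt1 (1.70), Casq2 (1.01) and Tnni1 (0.91), and 1 was lower, Myl3 (-0.998), with a median of 0.20. Without wild-type mouse 3, 4 were higher and the median was 0.34. The slow myosin gene Myh7, also picked out after its value had been seen, had a difference of -0.052 and was not called. The summed slow-fiber level ranged from 15.17 to 15.69 in desmin knock-out and from 14.63 to 15.70 in wild-type mice, with 15.18 as the wild-type maximum without mouse 3. Of 12 fast-fiber genes, Mybpc2 (-1.05) and Myh4 (-0.71) were lower and Myh2 (0.77), the myosin gene of type IIA fibers, was higher. The call of Myh4 was lost in 12 of 18 alternative fits. Without wild-type mouse 3, 2 fast-fiber genes were higher and 2 were lower. The median of this list was -0.39 (-0.24 without wild-type mouse 3). Its summed level ranged from 22.21 to 22.41 in desmin knock-out and from 22.44 to 23.29 in wild-type mice, with 22.77 as the wild-type maximum without mouse 3. Of 10 genes of regenerating fibers, 7 were higher and 1, Myod1 (-0.47), was lower, Myh3 (2.25), Mymk (1.93) and Mymx (1.35) having the smallest adjusted p. The summed level of this list was 11.92 to 12.43 in desmin knock-out and 11.23 to 11.95 in wild-type mice. The overlap came from wild-type mouse 3, without which the wild-type maximum was 11.62. The part of fiber types and regenerating fibers in the values of the Z-disc genes was not tested.

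The identity list of 8 muscle genes held 2 lower ones, Pygm (-0.76) and Myh4, with a summed level of 21.99 to 22.15 in desmin knock-out and 22.24 to 23.16 in wild-type mice (up to 22.59 without mouse 3). Fibroblast genes were higher for 4 of 7, among them Col1a2 (0.64), Lum (0.99) and Col1a1 (0.50), with summed levels of 13.90 to 14.50 and 13.45 to 14.39. The call of Col1a1 was lost in 11 of 18 alternative fits, and 3 of the 7 genes were called without wild-type mouse 3. Endothelial genes were lower for 4 of 6, among them Vwf (-0.62), Cdh5 (-0.52) and Pecam1 (-0.49), with 11.62 to 12.07 and 12.11 to 12.48. Without wild-type mouse 3, 3 of the 6 endothelial genes were lower. Erythroid genes were lower for 2 of 5, Alas2 (-0.9999) and Hbb-bs (-0.74), with 11.49 to 12.09 and 12.00 to 13.37, the wild-type maximum being 12.29 without mouse 3, where 3 genes were lower. Of the lists for macrophages (8 genes), smooth muscle and pericytes (6), Schwann cells (6) and adipocytes (5), limma called 0 genes, and 0 had an unadjusted p under 0.05. Their summed levels overlapped between the genotypes. Of 4 Y-linked genes, limma called 0, and 0 had an unadjusted p under 0.05. No marker gene of these lists was at 0 in all mice, and the part of these cells in the Z-disc values was not tested.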

How the data were processed

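The gastrocnemius muscles of 5 mice per genotype (desmin knock-out and wild-type) were sequenced with a stranded mRNA kit. Per the labels, the submitters' processing notes name cutadapt 2.5, STAR 2.5.4a, featureCounts of Subread 1.6.1, DESeq2 and GRCm38. The strand setting and the settings of the transformation are not given in the sources used here. The table deposited by the authors holds rlog values on a log2 scale, 1 column per mouse, without counts, so depth and counting error are unknown. The columns are labelled as separate mice, and each was used as 1 replicate.

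The expression limit was a mean rlog value of log2(10), reached by 14289 genes. They entered limma 3.58.1 (R 4.3.3, eBayes with trend, two-sided, Benjamini-Hochberg adjustment), a step that was checked on simulated data. The simulated noise was independent between genes and mice, so this check does not cover a mouse that deviates over many genes. Single genes were also tested with exact permutation tests. Symbols, positions and exon lengths came from GENCODE M21 (GRCm38). The Z-disc genes, lists and tests were chosen with earlier results of these data known. Named were the 10 genes, Des and, per direction in every other list, the called genes of lowest adjusted p, at most 3. Actn1, Actn4 and Myh7 lie outside this rule and were named after their values had been seen. An item of the paralog list is not reported here and enters no count of that list. Alternatives were no expression limit, a limit of log2(50), centring on the median, quantile normalization, 1 prior variance for all genes, sample weights, a block for the replicate number, a covariate from Y-linked transcripts, leaving out each mouse and a threshold of 0.01.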

Additional observations from a re-analysis of the deposited data

Results flagged for a closer look

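Dixon's limit was applied to 82 groups of 5 mice, that is to both genotypes for every gene named by the rule, and 8 had a mouse whose gap to the next value exceeded 0.71 of the range, where chance gives about 4.1. In 6 of the 8 it was wild-type mouse 3. Of the 20 groups of the Z-disc genes, only that of Actn3 in wild-type mice was among them, with 19.34 in wild-type mouse 3. The same mouse was the highest of its group by this measure for Des (17.74), Alas2 (8.28), Hbb-bs (12.44) and Tnnt1 (12.43) and the lowest for Ppp3ca (12.23). Reads of Hbb-bs can be shared with its near-identical copy Hbb-bt. The other groups were those of the lowest values of desmin knock-out mice, mouse 3 for Col1a2 (11.33) and mouse 1 for Trim54 (13.13).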

How the results depend on the processing

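Over the settings tried, Actn2 was called in every fit at an adjusted p under 0.05 (limma), Myoz2 in all except the fit without an expression limit (adjusted p = 0.0656) and Actn3 in all except this fit (adjusted p = 0.0705) and those without knock-out mouse 4 or 5. The number of Z-disc genes called, 3, became 1 without an expression limit, where more genes are tested (5.55% of all tested genes called), 1 at an adjusted p under 0.01 (6.96%), 6 with quantile normalization (15.0%), 6 with sample weights (29.5%) and 2 to 5 with 1 mouse left out (9.8% to 17.5%; 2 without knock-out mouse 4 or 5, 5 without wild-type mouse 3). The 2 genes without overlap became 1 (Actn3) with median centring (14.5% of all tested genes) and 6 with quantile normalization (14.7%). With 1 mouse left out they were 2 to 5 (15.4% to 18.5% of all tested genes), and 5 without wild-type mouse 3 (17.8%). For Ldb3 the difference turned from -0.098 to 0.070 with quantile normalization. The 8 called genes among paralogs and further Z-disc genes became 3 without an expression limit, 16 with sample weights, 2 at an adjusted p under 0.01 and 3 to 14 with 1 mouse left out (3 or 4 without 1 of the knock-out mice, 5 without wild-type mouse 2, 14 without wild-type mouse 3). For calcineurin and NFAT the 2 became 1 without an expression limit, 4 with quantile normalization, 4 with sample weights, 1 at an adjusted p under 0.01 and 1 to 4 with 1 mouse left out (1 without knock-out mouse 2 or 3, 4 without wild-type mouse 1). Marker genes called went from 26 to 13 at an adjusted p under 0.01. The shifts of the 3 ratios moved by less than the larger of the SDs of both genotypes, at 1.66 to 1.92, 1.16 to 1.38 and 1.19 to 1.40. The causes of these moves were not tested. Same-numbered mice had correlations of deviations between -0.22 and 0.067. Such correlations cannot tell whether the numbers pair the mice, for example by litter. With the replicate block 3 Z-disc genes were called, compared with 11.1% of all tested genes. In this fit 6 paralogs and further Z-disc genes, 2 calcineurin and NFAT genes and 25 markers were called. The deposited values hold no counts, so the depth behind them could not be weighed.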
